A study of Mus musculus with 18 samples.

Results

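The 10 genes described here encode collagens and were measured in the left ventricle of mice infused with angiotensin II (AngII). They are the fibrillar chains Col1a1, Col1a2, Col3a1, Col5a1, Col5a2, Col5a3 and Col11a1, the fibril-associated chains Col12a1 and Col14a1, and Col8a1, which is usually classed as a short-chain, network-forming collagen rather than a fibrillar one. The genes were chosen by symbol, and all 10 were found among the 51435 genes of the deposited tables. RNA was taken from the left ventricle of 18 C57BL/6J mice, 9 wild type (WT) and 9 WWP2 Mut/Mut. The mutants were bred from heterozygous crosses, compared with WT littermates, and carried a short CRISPR/Cas9 frameshift deletion in exon 2 of Wwp2, the gene of an E3 ubiquitin ligase. The deletion disrupts the full-length and N isoforms and leaves the C isoform, so the mutants are not complete nulls. Every mouse of both genotypes had received AngII at 500 ng/kg/min for 28 days from 8 weeks of age through an implanted pump, and no uninfused heart was analysed here. Mice are named by genotype and label number, as WT 43-3 or Mut 62-1.

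Fibrillar collagens form the load-bearing scaffold between heart muscle cells. Collagen chains wind into a triple helix in the endoplasmic reticulum, the propeptides are cut off outside the cell, and the molecules align into fibrils that lysyl oxidases cross-link. In the heart, type I and type III collagen make up most of the scaffold and come mainly from fibroblasts. Type V and type XI collagen sit inside the fibrils and control when they start and how thick they grow, whereas type XII and type XIV collagen decorate the fibril surface. AngII is a standard experimental cause of cardiac fibrosis, in which these chains accumulate.

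Promoter sequences are shown for Col1a2, Col3a1 and Col5a1, whose transcripts varied together between hearts (described with the correlations). Col5a3, Col8a1 and Col11a1 also had RefSeq promoter entries, so that 6 of the 10 genes matched. Col1a1, Col5a2, Col12a1 and Col14a1 did not. Each sequence is the 150 bases just before the transcription start on the plus strand of GRCm38.p6, from RefSeq. They lie at chr6:4505468-4505617 for Col1a2, chr1:45311388-45311537 for Col3a1 and chr2:27886275-27886424 for Col5a1. Capitals mark matches, on either strand, to 5 motifs that were searched. These were the CAAT box CCAAT, the TATA box TATAAA, the Sp1 core GGGCGG, the SMAD-binding CAGAC, and the E-box CACGTG.
Col1a2: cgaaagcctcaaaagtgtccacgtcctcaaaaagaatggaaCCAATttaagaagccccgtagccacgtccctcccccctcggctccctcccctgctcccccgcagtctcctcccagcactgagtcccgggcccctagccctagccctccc
Col3a1: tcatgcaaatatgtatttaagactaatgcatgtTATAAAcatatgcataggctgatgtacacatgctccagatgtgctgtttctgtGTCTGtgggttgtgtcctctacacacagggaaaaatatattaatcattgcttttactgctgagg
Col5a1: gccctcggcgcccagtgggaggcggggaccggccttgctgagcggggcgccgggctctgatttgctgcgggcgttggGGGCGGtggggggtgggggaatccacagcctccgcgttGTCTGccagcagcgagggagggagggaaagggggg
The capitals differ from one promoter to the next. Col1a2 holds CCAAT, which 33.9% of the 32851 RefSeq promoters hold within 250 bases of the start, and Col3a1 holds TATAAA, found in 12.4%. Col5a1 holds GGGCGG, the core of the Sp1 motif, found in 32.7%. CAGAC, the SMAD-binding letters, stands on the minus strand (as GTCTG) in both Col3a1 and Col5a1 and occurs in 42.2% of promoters. Between 150 and 250 bases before its start, Col1a2 also holds the Sp1 core and the SMAD-binding letters, Col3a1 the SMAD-binding letters and Col5a1 the Sp1 core. The E-box, found in 6.02% of promoters, was in none of the 3. These are letter matches only and were not tested for binding.

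The libraries held 24566994 to 37451087 counts (median 31168997). Cardiomyocyte markers summed to 37380 to 49980 TPM (a level corrected for library size and transcript length), as a ventricle should show. Atrial Myl7 exceeded 10 TPM in 5 mice (WT 43-3, WT 45-1, WT 84-2, Mut 8-2 and Mut 22-3), and liver transcripts varied widely, with Alb between 0.07 and 113 TPM. All 5 liver genes listed had a lower fitted level in WWP2 Mut/Mut mice at an unadjusted p below 0.05, with none called after adjustment, where 638 of 24804 genes were lower at that threshold. WT 43-3 is listed with an RNA concentration of 1.68 ng/µl, where the next lowest is 88.6, and concentration is a covariate of the genotype fit. The targeted gene Wwp2 was at 3.83, 5.10 and 6.01 TPM (lowest, median and highest) in WT and at 1.19, 1.58 and 3.00 TPM in WWP2 Mut/Mut mice. The groups did not overlap, and the log2 fold change (WWP2 Mut/Mut minus WT) was -1.40 with an SE of 0.157 (edgeR, FDR = 0.00113).

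Type III and type I collagen transcripts dominated the set. Col3a1, the single chain of type III collagen, was the most abundant, at 51.7 ± 16.1 TPM in WT and 49.9 ± 10.5 TPM in mutants (SD, n = 9 each). Its lowest, median and highest values were 17.0, 55.8 and 72.8 TPM in WT and 34.6, 48.8 and 63.3 TPM in WWP2 Mut/Mut mice. Thus the mutant values lay inside the WT range. Col1a2, the α2 chain of type I collagen, reached 8, 18.7 and 30.2 TPM in WT and 11, 15.98 and 26.9 TPM in WWP2 Mut/Mut mice. Col1a1, the α1 chain that outnumbers α2 in the type I molecule, was lower, at 5, 15.2 and 22.9 TPM in WT and 8.15, 11.5 and 20.4 TPM in WWP2 Mut/Mut mice. Together the 3 chains made 78.9% ± 1.45 (SD, n = 18) of the summed TPM of the 10 collagens, between 75.9 and 82.0% in single hearts. That share hardly moved although the sum itself ranged from 39.6 TPM in WT 16-1 to 162 TPM in WT 43-3.

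**Figure D1:**
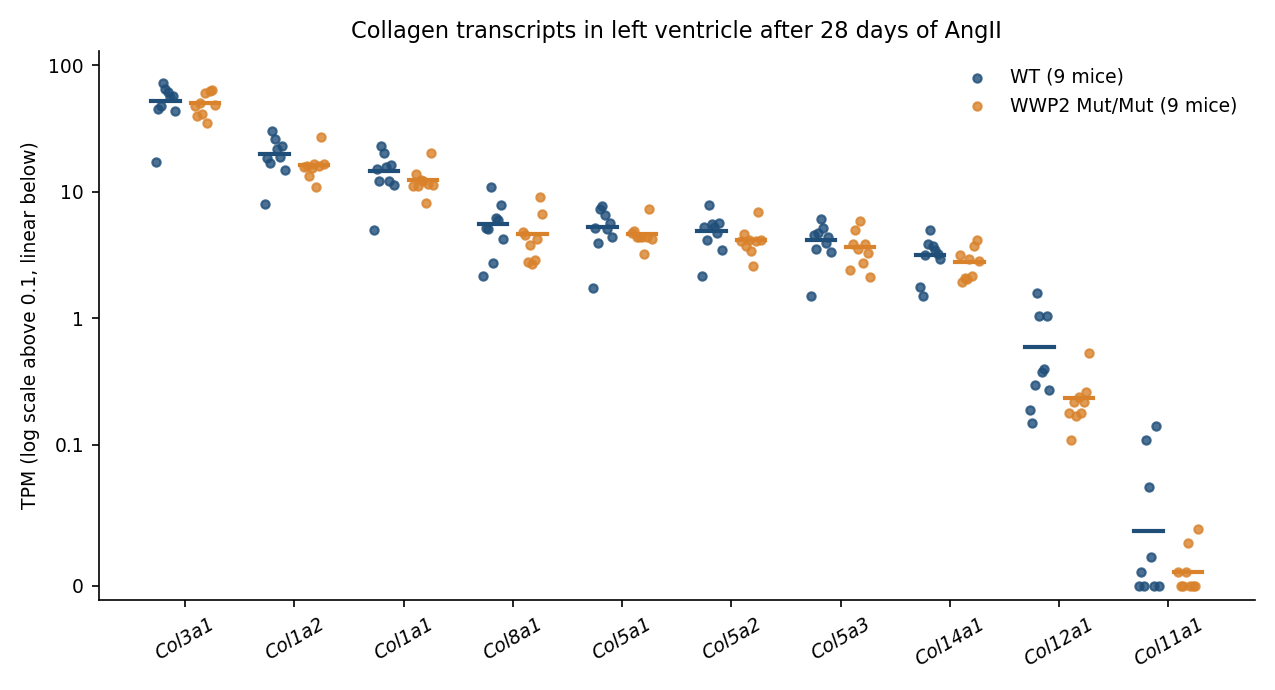
TPM of the 10 collagens (log scale above 0.1 TPM, linear below) in each of 9 WT and 9 WWP2 Mut/Mut mice, ordered by mean level. Points are mice and bars are group means. Col3a1 stands at about 50 TPM, Col11a1 near 0, and the genotypes overlap for each gene.

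How far Col3a1 stood above Col1a1 depended on the transcript length used. The transcript length implied by the deposited counts and TPM was 3746 bases for Col3a1 (median, from 3047 to 4554 between mice), against 5564 bases for its longest annotated transcript. For Col1a1 the implied 6143 bases lay close to the longest transcript of 5930 bases. The TPM ratio of Col3a1 to Col1a1 was 3.87 ± 0.740, whereas counts divided by the longest transcript gave 2.51 ± 0.292 (SD, n = 18). Col3a1 was the higher of the pair on either scale in 18 of 18 mice. Implied and annotated lengths also differed for Col12a1 and Col14a1, with implied lengths of 4364 and 3511 bases against longest transcripts of 11511 and 6457 bases. For Col12a1 the implied length also ran from 3228 to 8057 bases between mice, so its TPM in a single heart is less certain than its count.

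The type V chains followed, with group means between 3.63 and 5.29 TPM. Col5a1 (α1, the chain found in most type V molecules) was at 5.29 ± 1.84 TPM in WT and 4.65 ± 1.09 TPM in mutants, and Col5a2 (α2) at 4.91 ± 1.59 and 4.19 ± 1.18 TPM (SD, n = 9 each). Col5a3, the chain of restricted distribution, was at 4.14 ± 1.29 and 3.63 ± 1.21 TPM. These neighbours were not cleanly ordered. Col5a1 exceeded Col5a2 in 13 of 18 mice, and Col5a2 exceeded Col5a3 in 14. Col8a1, a chain of the type VIII lattice that remodelling vessels and hearts lay down, was at 5.59 ± 2.65 TPM in WT and 4.61 ± 2.10 TPM in WWP2 Mut/Mut mice and exceeded Col5a1 in only 9 of 18. By contrast, Col3a1 over Col1a2, Col1a2 over Col1a1, and Col1a1 over Col8a1 held in 18 of 18.

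The surface chains and Col11a1 were scarcer. Col14a1, a fibril-associated chain, reached 3.18 ± 1.07 TPM in WT and 2.78 ± 0.795 TPM in mutants (SD, n = 9 each). Col12a1, its relative from tendon and other dense connective tissue, was at 0.15, 0.38 and 1.60 TPM (lowest, median and highest) in WT and at 0.11, 0.22 and 0.53 TPM in WWP2 Mut/Mut mice, from 26 to 348 counts per heart. Of the WT mice, 3 stood above every mutant and the rest lay among them. Col11a1, a fibril-nucleating chain best known from cartilage, gave 61 counts over all 18 mice and none in 6 of them. Most of these came from WT 43-3 with 17, WT 84-2 with 15 and WT 45-1 with 8, the 3 mice that were also highest for Col12a1.

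To find whether the Wwp2 mutation altered collagen transcripts under AngII, genotype was tested across 24804 genes with edgeR, adjusted for lane and RNA concentration. None of the 10 collagens was called at an FDR below 0.05, where 0.00403% of all genes were called, which is Wwp2 alone. With an unadjusted p below 0.05 there was 1 collagen of 10, Col12a1, against 3.66% of all genes. The fitted log2 fold change was below 0 for 8 of 10, against 51.9% of all genes, and its median was -0.134, against -0.00987 for all genes tested. Non-overlapping TPM was found for none of the 10 and for 0.00403% of all genes.

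**Figure D2:**
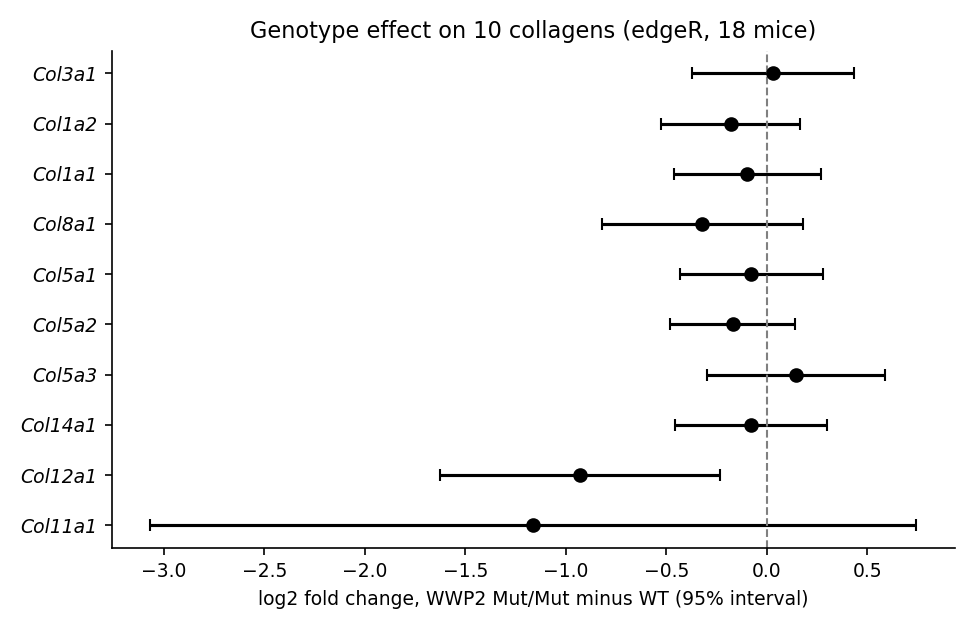
Log2 fold change of each collagen, WWP2 Mut/Mut minus WT, with its 95% interval from edgeR over 18 mice. Only the interval of Col12a1 leaves out 0. The interval of Col11a1 is the widest, from -3.07 to 0.74.

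For the main fibrillar chains the edgeR estimates were small. The log2 fold change was -0.10 (SE 0.174) for Col1a1, with a 95% interval from -0.46 to 0.27. For Col1a2 it was -0.18 (SE 0.165), with an interval from -0.53 to 0.17. For Col3a1 it was 0.03 (SE 0.193), with an interval from -0.37 to 0.44. Limma on log2(TPM + 1) and log2(TPM + 0.1) gave larger estimates, at -0.24 and -0.25 for Col1a1, -0.32 and -0.33 for Col1a2, and -0.27 and -0.32 for Col5a2, where the median of all genes was -0.0382 and -0.105. EdgeR with lane alone, which drops the RNA concentration and with it the 1.68 ng/µl of WT 43-3, gave smaller ones, at -0.04 for Col1a1, -0.11 for Col1a2 and -0.06 for Col5a2. Col5a1, Col5a2 and Col14a1 lay between -0.17 and -0.08, and Col5a3 was at 0.14. In bulk tissue, a smaller number of fibroblasts and less collagen RNA in each cannot be told apart. Summed fibroblast markers (Pdgfra, Tcf21, Dcn, Lum, Dpt, Gsn and Fbln1) had a median of 816 TPM in WT (571 to 1165) and 679 TPM in WWP2 Mut/Mut mice (558 to 865), and 0 of the 7 passed the test. All 7 had a fitted log2 fold change below 0 (median -0.148), as did all 7 activated fibroblast markers (median -0.124). The signs of the small estimates depended on which mice were fitted. Without WT 16-1 all 10 were below 0, and Col1a2 (log2 fold change -0.34) and Col5a2 (-0.29) reached an unadjusted p below 0.05 beside Col12a1. In that fit 1040 of 24677 genes did so, and the median of all genes was -0.0267. Without Mut 53-1, 5 of 10 were below 0.

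Col8a1 had a larger estimate of -0.32 (SE 0.238, edgeR adjusted p = 1), with a 95% interval from -0.82 to 0.18. Its size moved with the fit in both directions. It was -0.13 without covariates, -0.14 with lane alone, -0.18 without WT 67-1 and -0.21 without Mut 62-1. Without WT 45-1, which had 2.72 TPM of Col8a1 beside 20.2 TPM of Col1a1, it was -0.51, at an unadjusted p below 0.05 and not called. There, 730 of 24636 genes had an unadjusted p below 0.05. Col12a1 had the only estimate whose interval left out 0, at -0.93 (SE 0.332), from -1.62 to -0.23 (edgeR, unadjusted p = 0.0118, FDR = 0.999). Its size depended on the scale, at -1.12 without covariates, -0.71 with limma on log2(TPM + 0.1) and -0.27 on log2(TPM + 1), which understates the change of a gene this low. In TPM its group difference was below 0 in each of the 4 lanes, between -0.43 and -2.02 (log2), with 2 or 3 mice per genotype in a lane. The difference changed sign between lanes for Col1a1, Col1a2, Col3a1, Col5a1, Col5a2 and Col5a3. It was between 0.22 and 0.91 in lane 1 and between -0.43 and -1.0 in lane 3. For Col14a1 it was below 0 in each lane, between -0.0034 and -0.34. For Col12a1, leaving out single mice gave unadjusted p values from 0.00368 to 0.0532, the latter without Mut 53-1. For Col11a1 the counts were too few to bound a difference, with an estimate of -1.16 (SE 0.908).

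Whether the chains of one molecule kept their proportions was asked with ratios of TPM within each heart, which do not depend on the scaling between libraries. The type I ratio was among the tightest. Col1a1 over Col1a2 was 0.728 ± 0.0611 in WT and 0.758 ± 0.0603 in mutants (SD, n = 9 each), a coefficient of variation of 8.18% over 18 hearts, although Col1a1 itself varied 4.58-fold. It ran from 0.626 in WT 16-1, the heart with the least collagen, to 0.862 in Mut 22-3. Every heart thus held less Col1a1 than Col1a2 transcript, the reverse of the chain order in the protein. Counts divided by the longest transcript gave 0.759 ± 0.0598 (SD, n = 18), a coefficient of variation of 7.88%.

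Col5a1 over Col1a1 was as constant, at 0.372 ± 0.0308 in TPM (SD, n = 18), or 8.28%, and tighter than the type I ratio by counts over the longest transcript, at 5.10%. Col5a1 over Col5a2, the chains of the common type V molecule, was 1.10 ± 0.149 (SD, n = 18). It was 1.07 ± 0.192 in WT and 1.125 ± 0.0932 in mutants (SD, n = 9 each). Over 18 hearts its coefficient of variation was 13.6%. That was 26.25% for Col5a3 over Col5a1, 28.4% for Col8a1 over Col1a1 and 40.0% for Col8a1 over Col8a2. Col5a3 over Col5a1 was 0.797 ± 0.0777 in WT but 0.808 ± 0.297 in mutants (SD, n = 9 each), where it ran from 0.454 in Mut 62-1 to 1.34 in Mut 52-1. Col8a1 over Col1a1 was 0.381 ± 0.108 over 18 mice, with the lowest value, 0.135, in WT 45-1. The type VIII partner Col8a2 was far below Col8a1, by 21.4 ± 9.30-fold in WT and 30.8 ± 9.71-fold in mutants (SD, n = 9 each). The log2 difference was 0.62 (exact permutation test, p = 0.0551, adjusted p = 0.202). On expected counts it was 0.66 (exact permutation test, p = 0.0469, adjusted p = 0.172). It was 0.38 with lane and RNA concentration removed, and 0.15 without the 5 mice over 10 TPM of Myl7. With a pseudocount of 1 TPM it was -0.0131.

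**Figure D3:**
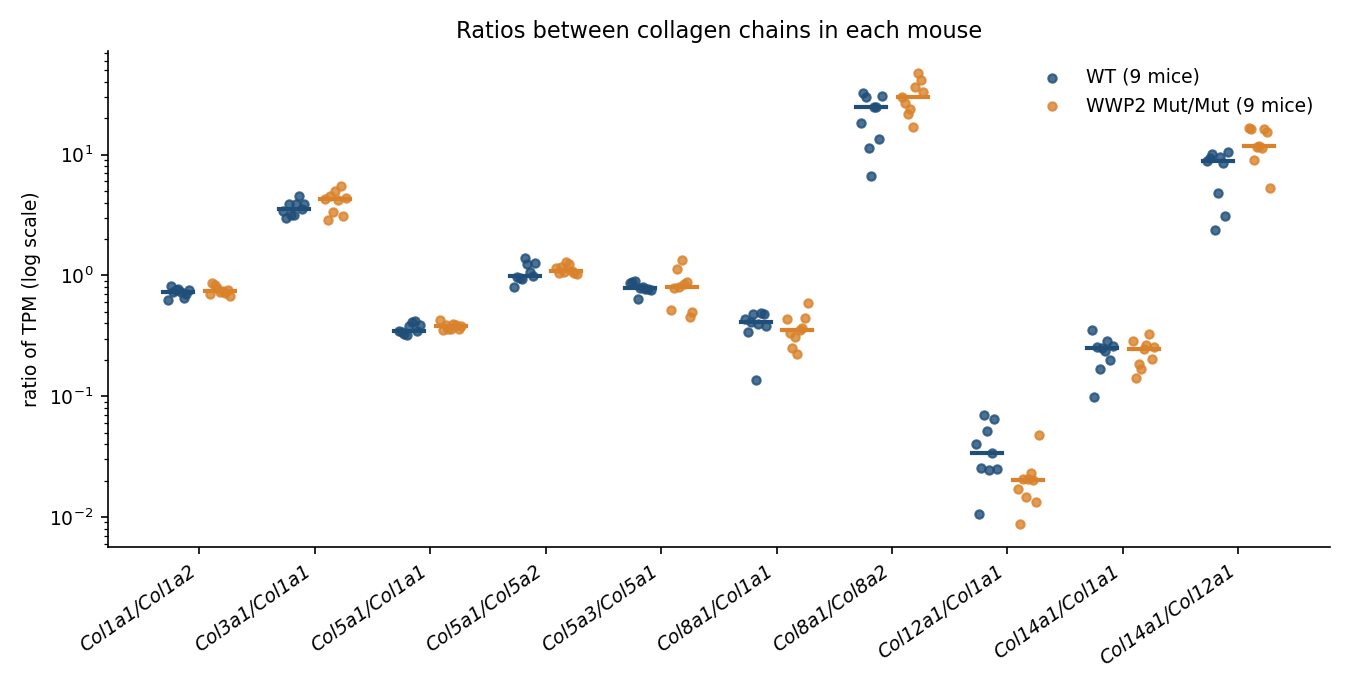
Ratio of TPM between collagen chains (log scale) in each of 9 WT and 9 WWP2 Mut/Mut mice. Points are mice and bars are group medians. Col1a1/Col1a2 and Col5a1/Col1a1 are narrow, whereas ratios that include Col12a1 or Col8a2 span the widest range of the 10 drawn. Col11a1/Col5a1, with Col11a1 at 0 counts in 6 mice, is not drawn.

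None of 11 ratios differed between genotypes after adjustment over the 11. The largest difference was in the balance of the fibril-associated chains. Col14a1 over Col12a1 was at 2.39, 8.85 and 10.5 (lowest, median and highest) in WT and at 5.30, 11.9 and 16.7 in WWP2 Mut/Mut mice. The geometric mean was 1.799-fold higher in the mutants (two-sided exact permutation test, p = 0.0165, adjusted p = 0.182). It was higher in each of the 4 lanes, and without Mut 8-2 alone it passed the adjusted threshold (exact permutation test, p = 0.00123, adjusted p = 0.0136). The log2 difference of 0.85 was 0.45 with lane and RNA concentration removed (exact permutation test, p = 0.0464) and 0.19 with a pseudocount of 1 TPM, which is above most Col12a1 values (exact permutation test, p = 0.191). Its 3 lowest WT values belonged to WT 43-3, WT 84-2 and WT 45-1, the hearts with the most Col12a1, and without the 5 mice over 10 TPM of Myl7 it was 0.44 (exact permutation test, p = 0.0111, adjusted p = 0.122). Col12a1 over Col1a1 was 0.56-fold in the mutants (exact permutation test, p = 0.0357, adjusted p = 0.196). Its exact permutation p was 0.147 without those 5 mice, 0.400 with a pseudocount of 1 TPM and 0.0431 with lane and RNA concentration removed. From expected counts, the exact permutation p was 0.0230 for Col12a1 over Col1a1 and 0.0172 for Col14a1 over Col12a1 (adjusted 0.1265 for both). For Col1a1 over Col1a2 the exact permutation p was 0.318, and for Col3a1 over Col1a1 it was 0.171.

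Collagens varied more between hearts than most genes did. The within-genotype SD of log2(TPM + 0.01) ranged from 0.456 for Col5a2 to 1.34 for Col11a1, against a median of 0.344 over 11336 genes with a mean of at least 1 TPM, among which the SDs of the 8 collagens that pass this filter stood between the 73.5 and 92.1 percentiles. Col11a1 and Col12a1 lie under it, where low counts widen the SD. For 10 of 10 collagens the WT mice had the larger SD, and so did the WT mice for 61.4% of those genes. Col1a1 had an SD of 0.635 in WT and 0.349 in WWP2 Mut/Mut mice, and Col12a1 had 1.16 and 0.585 (n = 9 each). No difference in mean absolute deviation reached p below 0.05, the lowest being that of Col12a1 (two-sided exact permutation test, p = 0.0786). Several of the 10 genes move together, so they are not 10 separate observations of that difference.

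A few hearts set this spread. WT 16-1 was lowest of the 18 for 7 of the collagens. WT 43-3 was highest for 6 and WT 45-1 for 3. Among the mutants, Mut 62-1 was in the top 3 of all 18 for 7 collagens, with 20.4 TPM of Col1a1 where the next mutant had 13.8. WT 16-1 also had the highest gene body coverage value, 0.0540, and WT 43-3 the lowest, 0.0288. The authors label this fraction genebody_bottomhalf, and its exact definition is not given in the sources used here. A higher value therefore cannot be read as better coverage of whole transcripts. With coverage added to the genotype fit, the log2 fold change was -0.04 for Col1a1, -0.22 for Col8a1 and -0.83 for Col12a1, and none of the 10 was called.

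The main fibrillar chains rose and fell together from heart to heart. Over 18 mice, with each genotype's mean removed, Col1a1 and Col1a2 had r = 0.976 and rho = 0.856 (permutation p = 1e-05, the smallest 100000 resamples can give, and 9e-05; adjusted over 12 relations, 6e-05 and 0.00054). The relation held without WT 16-1 and WT 43-3, the mice farthest from the median, at r = 0.942. Col5a1 with Col5a2 gave r = 0.919 and rho = 0.905 (permutation p = 1e-05 and 4e-05; adjusted 6e-05 and 0.00048), and r = 0.923 without the farthest mice. Among the 10 pairs of Col1a1, Col1a2, Col3a1, Col5a1 and Col5a2, r lay between 0.80 and 0.98 on TPM and between 0.87 and 0.98 on CPM, the count scaled by library size. Within the mutants (n = 9), Col1a1 with Col1a2 had r = 0.946 but rho = 0.65 (exact permutation p = 0.00397 and 0.0666). Col5a1 with Col5a2 had r = 0.962 but rho = 0.60 there (exact permutation p = 0.00151 and 0.0968). Within WT (n = 9) these rho values were 0.95 and 0.867 (exact permutation p = 0.000353 and 0.00451). Lanes held 4 or 5 mice each, too few for a value within a lane.

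**Figure D4:**
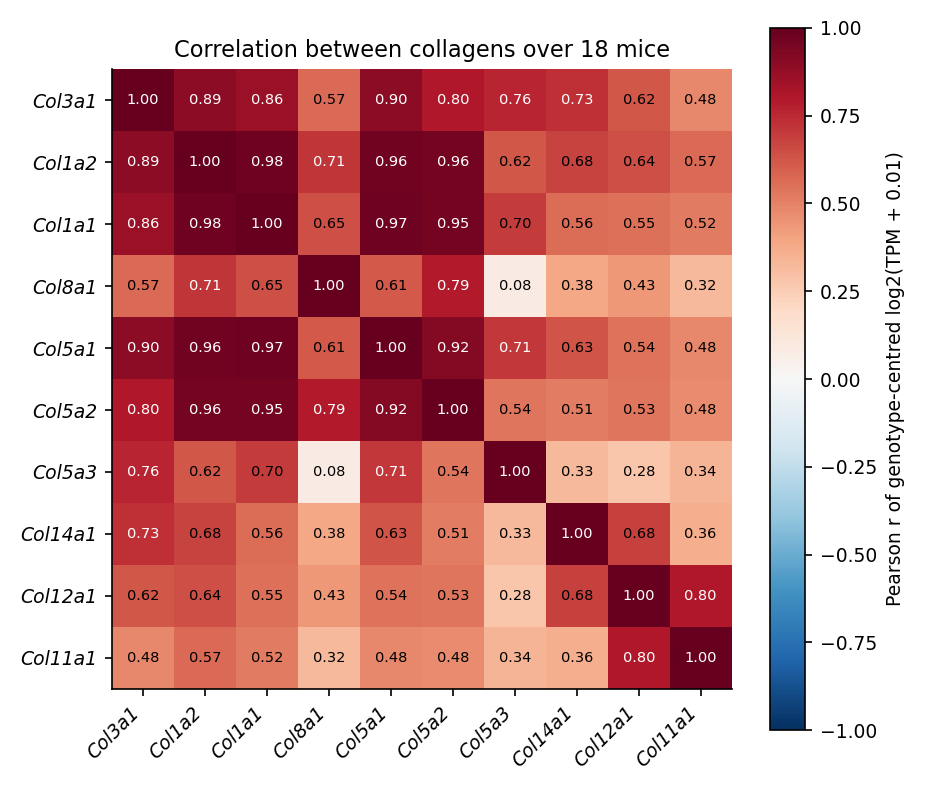
Pearson r of log2(TPM + 0.01) between each pair of the 10 collagens over 18 mice, after each genotype's mean was removed, ordered by mean level. The block of Col3a1, Col1a2, Col1a1, Col5a1 and Col5a2 lies between 0.80 and 0.98, and Col8a1 with Col5a3 is lowest at 0.08.

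Other relations leaned on the extreme hearts. Col1a1 with Col3a1 had r = 0.864 and rho = 0.676 (permutation p = 0.00016 and 0.00344; adjusted 0.00064 and 0.0103), but r = 0.599 without WT 16-1 and WT 43-3. Col3a1 with Col5a2 had r = 0.80 and rho = 0.600 (permutation p = 0.00037 and 0.0112; adjusted 0.00111 and 0.0223), and 0.551 without them. Col1a1 with Col8a1 had r = 0.646 and rho = 0.490 (permutation p = 0.00643 and 0.0524; adjusted 0.0129 and 0.0786), and 0.354 without them. In CPM its r was 0.429 (permutation p = 0.102, adjusted 0.135), so that call was not held, whereas without the 5 mice over 10 TPM of Myl7, WT 45-1 among them, it was 0.857 in TPM (permutation p = 0.00347, adjusted 0.00919). Both Col14a1 and Col12a1 were more loosely tied to Col1a1, at r = 0.558 and 0.548 (permutation p = 0.0314 and 0.0386; adjusted 0.0471 and 0.0515) with rho = 0.465 and 0.517 (permutation p = 0.066 and 0.0479; adjusted 0.081 and 0.0786). Those fell to 0.378 and 0.308 without the same 2 mice. In CPM Col14a1 lost its call (r = 0.466, permutation p = 0.0814, adjusted 0.122) and Col12a1 gained one (r = 0.625, permutation p = 0.0107, adjusted 0.0257). Col5a1 with Col11a1 had r = 0.481 and rho = 0.477 (permutation p = 0.0794 and 0.0675; adjusted 0.0953 and 0.081), and 0.358 without its farthest mice.

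Relations with Wwp2 and with library measures changed with the unit. Wwp2 and Col1a1 had r = 0.49 and rho = 0.598 in TPM (permutation p = 0.0156 and 0.00483; adjusted 0.0268 and 0.0116), and r = 0.474 without the 2 farthest mice. The TPM relation came from the WT mice, with r = 0.962 (exact permutation p = 0.000364, n = 9), against 0.302 in the mutants (exact permutation p = 0.363, n = 9). In TMM-normalized CPM of the same libraries, r was 0.089 over 18 mice (permutation p = 0.627) and -0.04 within WT (exact permutation p = 0.929, n = 9), so the relation did not hold on that scale. Gene body coverage and Col1a1 had r = -0.66 and rho = -0.69 in TPM (permutation p = 0.0023 and 0.00247; adjusted 0.00552 and 0.00988). That was -0.58 without the 2 farthest mice and -0.47 in CPM (permutation p = 0.0569). With Col12a1, gene body coverage had r = -0.27 and rho = -0.15 (permutation p = 0.296 and 0.566; adjusted 0.322 and 0.566). RNA concentration and Col1a1 had r = 0.154 and rho = 0.253 (permutation p = 0.506 and 0.305; adjusted 0.506 and 0.333).

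The genes whose pattern was most like each member, by Pearson r over 18 mice with genotype means removed among 11336 genes, differed from one collagen to the next. For Col1a1 these were Col1a2 (0.976), Arhgap1 (0.976), Col6a1 (0.974), a chain of the beaded-filament type VI collagen, Col5a1 (0.972) and Adamts2 (0.970), the procollagen N-proteinase. In CPM the nearest were Col5a1, Col1a2, Col6a2, Adamts2 and Col3a1, and Arhgap1 ranked 8. For Col14a1 they were Mxra8 (0.898), Postn (0.887), the matricellular protein periostin, Gsn (0.886), the actin-severing protein gelsolin, Rcn3 (0.881) and Islr (0.876). In CPM Islr ranked 1 and Rcn3 ranked 77.

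For Col8a1 the nearest genes were F13a1 (0.928), the coagulation factor XIII A chain, which tissue macrophages express, Fstl1 (0.925), a secreted follistatin-like glycoprotein, Fam198b (0.907), Rab8b (0.905) and Nudt5 (0.905). No other collagen of the 10 was among its 100 nearest genes, whereas Col1a1, Col1a2, Col3a1, Col5a1 and Col5a2 each had 3 or 4, and Col5a3 and Col14a1 had 1. Col11a1 and Col12a1 also had none, but both lie under the 1 TPM filter of the search and could not be found as neighbours, and with each other they had r = 0.80. The r at rank 100 differed between genes, at 0.805 for Col8a1 and 0.705 for Col14a1. Col5a2 had r = 0.791 with Col8a1 and fell outside, whereas Col3a1 had r = 0.731 with Col14a1 and counted. In CPM F13a1 and Fstl1 stayed among the 3 nearest genes of Col8a1, and Nudt5 ranked 114.

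Col12a1 followed a different set again. Its nearest genes were Fmod (0.923), the small leucine-rich proteoglycan fibromodulin, Comp (0.912), cartilage oligomeric matrix protein, Casq1 (0.889), the skeletal muscle calsequestrin, Thbs4 (0.885), a thrombospondin of tendon and heart, and Pdgfrl (0.876). In CPM Comp, Thbs4 and Fmod ranked 3 to 5. Over the 15 mice without WT 43-3, WT 84-2 and WT 45-1, the highest 3 in Col12a1, r was 0.761 for Fmod, 0.687 for Comp, 0.855 for Casq1, 0.742 for Thbs4 and 0.674 for Pdgfrl.

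WT 43-3, WT 84-2 and WT 45-1 had 1.60, 1.04 and 1.04 TPM of Col12a1, where the other 15 mice had 0.11 to 0.53. The same 3 hearts had 4.54 to 8.08 TPM of Fmod against 0.24 to 1.51 in the others, and 7.83 to 13.9 TPM of Comp against 0.85 to 2.26. Chad, the cartilage matrix protein chondroadherin, was at 1.33 to 4.22 TPM against at most 0.18, and the tendon gene Tnmd at 0.39 to 1.51 TPM against at most 0.29. Their atrial Myl7 was at 87.6 to 338 TPM, but Mut 8-2 had 214 TPM of Myl7 with 0.53 TPM of Col12a1, the mutants' highest, and Mut 22-3 had 48.7 TPM with 0.11, the lowest of all. Of 6 cartilage, tendon and valve markers (Sox9, Acan, Chad, Tnmd, Scx and Fmod) the sum was 16.8 to 23.0 TPM in these 3 hearts and 5.30 to 12.6 TPM in the other 15. Sox9 was also apart, at 0.51 to 0.68 TPM against at most 0.42, but Scx (7.07 to 8.40 against 4.25 to 10.2) and Acan (0.07 to 0.20 against 0.03 to 0.17) overlapped. The 3 hearts were the highest for summed fibroblast markers as well, at 909 to 1165 TPM against 558 to 871. Of these fibroblast markers, Dcn and Dpt stood apart and the rest overlapped. Summed activated fibroblast markers were also the highest in the 3 hearts, at 61.7 to 85.9 TPM against 28.1 to 60.4. Of the 7 activated fibroblast markers, Comp stood apart and the other 6 overlapped, as Postn did at 28.9 to 41.4 TPM against 13.4 to 34.3. The part of such tissue or of fibroblasts in the Col12a1 values was not tested. These 3 were the highest of all 18 for Col12a1, so leaving them out had to lower the WT values. It took WT Col12a1 from 0.597 ± 0.506 (SD, n = 9) to 0.282 ± 0.0999 TPM (SD, n = 6), and the edgeR log2 fold change from -0.93 to -0.49 (unadjusted p = 0.156). Without all 5 mice over 10 TPM of Myl7 it was -0.49, and 4 of the 10 collagens were below 0.

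**Figure D5:**
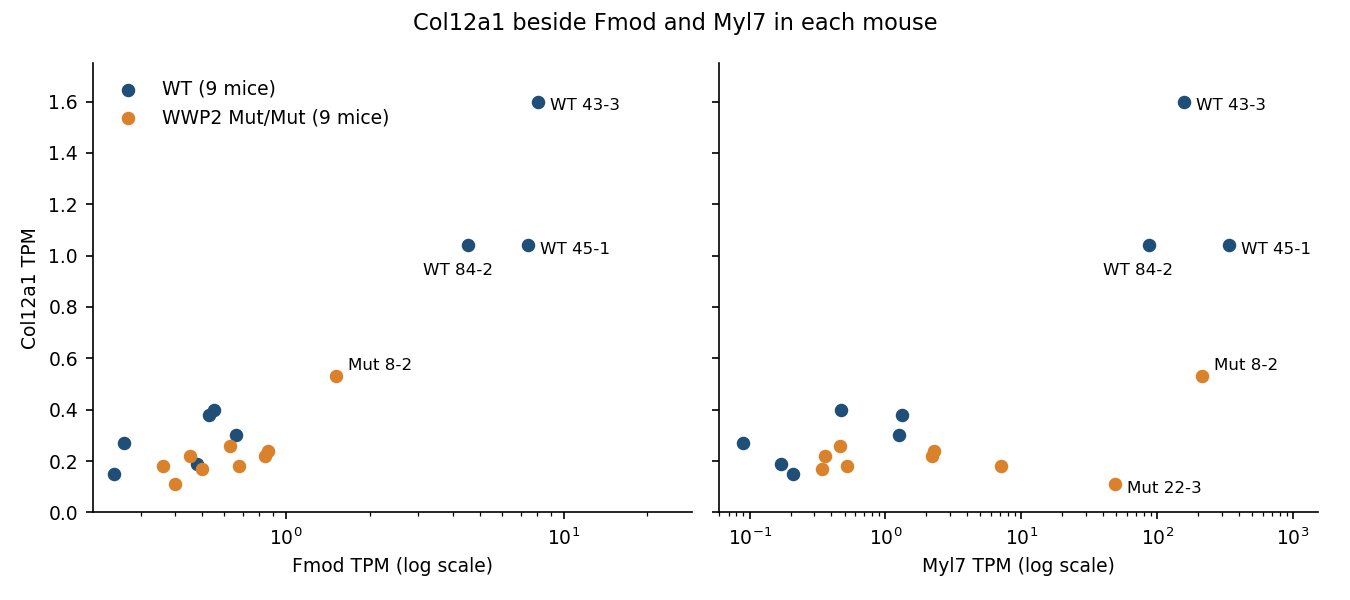
Col12a1 TPM against Fmod and Myl7 TPM (both log scale) in each of 9 WT and 9 WWP2 Mut/Mut mice. WT 43-3, WT 84-2 and WT 45-1 stand apart in Col12a1 and Fmod, and Mut 8-2 shares their Myl7 level with 0.53 TPM of Col12a1.

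The same 3 hearts were also the highest for the scarce chains Col11a1 and Col8a2. This did not hold for every scarce chain. Only 1 WT mouse was above every mutant for Col11a2, and 0 were for Col20a1. Col11a1 was at 0.07 to 0.14 TPM in them and at 0.00 to 0.04 TPM in the other 15. Col8a2, the other type VIII chain, was at 0.40 to 0.95 TPM against 0.07 to 0.24. Among the abundant chains the 3 hearts were mostly high but overlapped the others, with Col1a1 at 16.2 to 22.9 TPM against 5 to 20.4 (median 12.1) in the others, and Col8a1 at 2.72 to 10.95 TPM against 2.18 to 9.10. Without the 3 mice, WT Col1a1 was 12.0 ± 3.86 TPM (SD, n = 6), beside 12.4 ± 3.35 TPM (SD, n = 9) in the mutants, and its fitted log2 fold change was 0.07.

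The remaining collagens of these classes and the genes that make procollagen were read against the members. Of 13 other fibrillar, fibril-associated and short-chain collagens, 0 were called (edgeR, FDR below 0.05), 10 had a log2 fold change below 0, and the median was -0.376, beside the shares over all genes of 0.00403% called and 51.9% below 0. Their most abundant were Col16a1 (3.25 TPM), a fibril-associated chain, Col11a2 (0.642 TPM) and Col27a1 (0.608 TPM), as means of 18 mice. Col8a2 alone had an unadjusted p below 0.05, at -0.81 (SE 0.303, edgeR adjusted p = 1). Of 21 genes for procollagen folding, cleavage and cross-linking, 0 were called and 0 had an unadjusted p below 0.05, 12 were below 0, and the median was -0.0202, beside 3.66% and 51.9% of all genes. The most abundant were Sparc (230 TPM), a matricellular collagen-binding protein, Serpinh1 (111 TPM), the collagen chaperone HSP47, and Ppib (83.9 TPM), a prolyl isomerase of the procollagen hydroxylation complex. Their fitted log2 fold changes were 0.07 for Sparc, -0.22 for Serpinh1 and 0.13 for Ppib.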

How the data were processed

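Poly(A)-selected RNA from the left ventricles of 9 WT and 9 WWP2 Mut/Mut mice was sequenced by the authors, who aligned the reads with STAR 2.5.2b and estimated expression with RSEM 1.2.31 (Ensembl 89, mouse m38). The deposited tables hold expected counts and TPM per gene and mouse, from which the authors had removed rRNA and mitochondrial genes. A deposited sample table gives lane, RNA concentration and gene body coverage, the last as a fraction. Expected counts (5.11% not whole) were rounded. Deposited TPM, which summed to less than its nominal total in every library, was used as given. Symbols were matched to 51242 of 51435 gene IDs.

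Genotype was tested with edgeR 4.0.16 (quasi-likelihood, TMM) in R 4.3.3 over 24804 genes with more than 1 count, adjusting for lane and for centred RNA concentration, Benjamini-Hochberg adjustment over all genes and a threshold of 0.05. Replicates are separate mice. Ratios and deviations used log2(TPM + 0.01), two-sided exact tests over 48620 divisions of the mice, and correlations used 100000 permutations within genotype. Named genes were the 10 collagens, Wwp2, the 5 nearest genes of Col1a1, Col8a1, Col12a1 and Col14a1, and, of 2 lists of other collagens and procollagen genes, the 3 most abundant and any with p below 0.05, and Col8a2 and marker genes where they moved with Col12a1, the latter seen after the values. CPM values for the nearest genes and within genotypes, and fits without the mice high in Myl7 or Chad, were chosen after seeing the data. The members, lists and tests were chosen with earlier results of these data known. DESeq2 1.42.0 and limma 3.58.1 were alternatives. The edgeR step was checked on simulated data. Depth limits Col11a1 and Col12a1 most.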

Additional observations from a re-analysis of the deposited data

Results flagged for a closer look

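In 42 groups of 9 mice (10 levels and 11 ratios in each genotype) the highest and lowest values were examined for a gap to the next mouse that was large against the group's range, and 7 stood out. Chance alone gives about 1 in 20 groups, and several of the members move together, so these are not separate events.

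Mut 62-1 was the highest mutant by such a gap for 4 of the main fibrillar chains. It had 20.4 TPM of Col1a1 (next 13.8), 26.9 TPM of Col1a2 (next 16.6), 7.28 TPM of Col5a1 (next 4.89) and 6.94 TPM of Col5a2 (next 4.64). Its RNA concentration, 320.9 ng/µl, was the highest of the 18, and its fibroblast markers summed to 810 TPM, within the mutants' range of 558 to 865. Its activated fibroblast markers summed to 56.2 TPM, the mutants' highest (next 48.8). The part of these in the collagen levels was not tested.

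Mut 8-2 had the highest Col12a1 of the mutants, at 0.53 TPM (next 0.26), and the highest Col12a1 over Col1a1, at 0.0480 (next 0.0233). This heart also had 214 TPM of Myl7, the mutants' highest, and 0.29 TPM of Tnmd. WT 45-1 had the lowest Col8a1 over Col1a1 of the WT mice, at 0.135 (next 0.343). It carried 338 TPM of Myl7 and 113 TPM of Alb, each the highest of the 18. Whether these levels bear on the ratio was not tested.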

How the results depend on the processing

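None of the 10 collagens was called in any of the 28 alternative fits. Limma on log2(TPM + 0.1) moved the median log2 fold change of all genes to -0.105. Small estimates changed sign. Without covariates Col14a1 was at 0.0283. Col5a3 was at -0.0061 with lane alone, -0.0295 with limma on log2(TPM + 1) and -0.0242 on log2(TPM + 0.1). Without the 5 mice over 10 TPM of Myl7 (chosen after seeing the data), 0 genes were called (510 at an unadjusted p below 0.05), 4 collagens were below 0, and Col1a1, Col5a1, Col11a1 and Col14a1 were at 0.13, 0.15, 1.09 and 0.0224; Col5a3 at 0.55 and Col8a1 at -0.49 had an unadjusted p below 0.05. Without the 3 mice over 1 TPM of Chad (also chosen then), 2 genes were called and 5 collagens were below 0. Of 24360 genes in that fit, 624 had an unadjusted p below 0.05. Col1a1, Col5a1 and Col11a1 were at 0.0738, 0.0771 and 0.68, and Col8a1 was at -0.47 with an unadjusted p below 0.05. With 1 mouse left out, collagens below 0 ranged from 5 to 10 and genes called from 1 to 2 (2 without Mut 1-2 or WT 84-2), and the fold changes ranged from -0.16 to 0.15 for Col3a1, -0.0606 to 0.27 for Col5a3, -0.27 to 0.0151 for Col1a1, -0.24 to 0.0322 for Col5a1 and -0.18 to 0.0219 for Col14a1. Col11a1 was too low to be tested under edgeR's own filter.

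Of the ratios, 0 to 1 passed adjustment with 1 mouse left out. Leaving out each mouse, the log2 difference ranged from -0.16 to 0.0329 for Col5a3/Col5a1, -0.14 to 0.0917 for Col14a1/Col1a1 and -0.26 to 0.00627 for Col8a1/Col1a1. A pseudocount of 1 gave 0.0680 for Col11a1/Col5a1 and -0.0131 for Col8a1/Col8a2 and cut Col14a1/Col12a1 to 0.19 and Col12a1/Col1a1 to -0.16, and removing lane and RNA concentration gave 0.14 for Col5a3/Col5a1 and -0.0265 for Col14a1/Col1a1. Without the Myl7 mice Col11a1/Col5a1 was 0.0117. Of the differences in mean absolute deviation (mutant minus WT), 1 had p below 0.05 in CPM (Col11a1). In CPM the difference itself was 0.12 for Col5a3 and 0.0364 for Col14a1. With 1 mouse left out, 0 to 1 had p below 0.05 (Col12a1, without Mut 8-2 or WT 45-3). The left-out differences ranged from -0.0539 to 0.14 for Col5a3 and -0.0853 to 0.0542 for Col14a1. They ranged from -0.18 to 0.036 for Col3a1 and -0.15 to 0.0246 for Col8a1.

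Of 12 correlations, 8 passed adjustment in TPM, 5 in CPM, 6 without the Myl7 mice, 2 without the 2 farthest mice, 7 within WT alone and 2 within the mutants alone. RNA concentration with Col1a1 was -0.30 within WT and 0.77 within the mutants, Col5a1 with Col11a1 was -0.15 within the mutants, and gene body coverage with Col12a1 was 0.09 without the Myl7 mice. The cause of these changes was not tested. No paired analysis was possible because the genotypes share no replicate numbers.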
